A study of Mus musculus with 9 samples.

Results

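Changes common to 2 mutations of Lmna were examined in perigonadal white adipose tissue, the fat depot that lies next to the gonads. Genes were selected by a rule on measured values: all 6 arrays of the mutant mice had to lie on the same side of all 3 arrays of the wild type (WT). Of 16299 genes with a value, 2853 met the rule, 1340 of them higher and 1513 lower in the mutants. Among the 11342 genes bright enough to be tested, 2456 were kept, 1136 higher and 1320 lower. Intensities were read on Affymetrix exon arrays from total RNA of mice aged 4 months, with 3 arrays for each of 3 genotypes: WT, G609G/G609G (here G609G) and LCS/LCS (here LCS). Both mutants are homozygous for an allele of Lmna in the whole animal, and the labels give neither sex nor strain. All values below are log2 intensities, on which a difference of 1 is a doubling, after each array was shifted by its median deviation from the gene means.

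Lmna encodes lamins A and C, filament proteins that line the inside of the nuclear envelope and bind chromatin. The G609G allele is known to activate a splice site from which progerin, a shortened and permanently farnesylated lamin A, is made, and mice homozygous for it develop progeria with loss of fat. The LCS allele is known to give lamin C without lamin A, so that a change seen in both genotypes was seen with progerin present and with lamin A absent. White adipocytes store triglyceride, secrete hormones such as leptin and adiponectin, and release fatty acids when glucocorticoids, adrenergic signals or fasting call for them.

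The level of Lmna as a whole does not check the labelled genotypes, since neither allele is known to remove the Lmna transcript. The 17 probe sets of Lmna on the exon arrays were not read one by one here. Lmna itself was not kept: it read 7.79, 7.64 and 7.64 in WT, 7.49, 7.66 and 7.50 in G609G and 7.76, 7.59 and 7.88 in LCS, with a mean difference from WT of -0.04 whose sign turned to 0.04 when arrays were centred on their medians. With the plain mean of its probe sets this difference was -0.36. Across genes, Pearson's r was 0.990 to 0.998 for arrays of a genotype, whereas a WT and a G609G array correlated at 0.868 to 0.881. A WT and an LCS array correlated at 0.956 to 0.959, and a G609G and an LCS array at 0.854 to 0.863. Of 26 markers of mature adipocytes, 25 lay above the intensity filter of 5.09 on all 9 arrays. The deposited medians were 6.52 to 6.63 on the G609G arrays and 7.17 to 7.28 on the others, an offset that the shift takes out. Markers of other tissues moved with genotype. The 17 skeletal muscle markers averaged 5.30 to 5.46 on the WT arrays, 5.55 to 5.61 in LCS and 11.46 to 11.51 in G609G. The 31 epididymis markers averaged 10.71 to 10.80 in WT, 8.32 to 8.40 in G609G and 9.71 to 9.74 in LCS, and the 21 markers of testis and sperm averaged 8.20 to 8.28, 7.05 to 7.12 and 5.36 to 5.39 in the same order. The epithelial list moved too and is given with the lower genes.

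**Figure D1:**
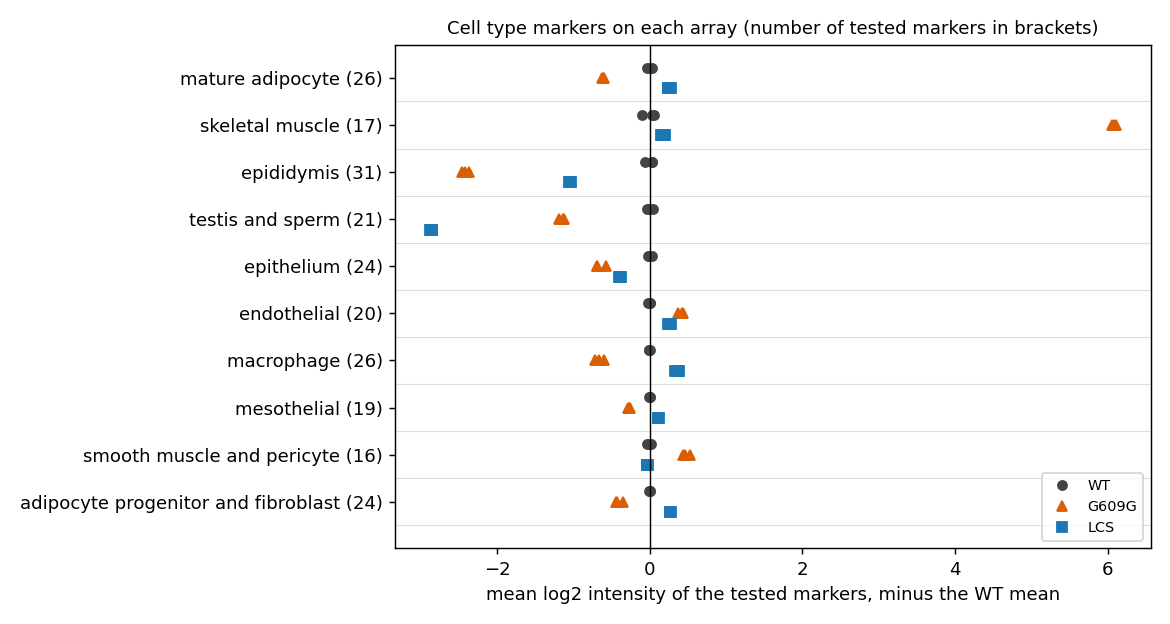
Mean log2 intensity of the tested markers of each cell type on each of the 9 arrays, minus the mean of the 3 WT arrays (horizontal axis, log2 units). Skeletal muscle markers stand far above WT on the G609G arrays alone, whereas epididymis, testis and sperm, and epithelium markers lie below WT in both mutants and endothelial markers above WT in both on this shifted scale. The epithelium list was drawn up after the values were seen.

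Against all tested genes, 10.0% were kept as higher and 11.6% as lower. By limma, with Benjamini-Hochberg adjustment at 0.05, the mean of both mutants differed from WT for 6155 genes, 3002 higher (26.5%) and 3153 lower (27.8%). This split depended on the scaling: without the shift it was 927 higher and 5997 lower, and with each array centred on its median 4275 higher and 2381 lower. The kept genes split into 367 higher and 1785 lower without the shift and 1529 and 999 when centred. Since the rule uses the same contrast, differences from WT are given below as a description of the kept genes and were not used as a test of them. Both mutants were compared with the same 3 WT arrays. Comparisons between the mutants rest on the scaling too. Without the shift the median of G609G minus LCS over genes was -0.48, and of the 1632 kept genes that differed between them 1004 were still called in the same order, 130 were not called and 498 turned. With arrays centred on their medians 35 turned, and with quantile normalization 5. A larger or smaller change in G609G is therefore meant relative to the median gene. Most kept changes were small. The median difference from WT over the kept higher genes was 0.43 in G609G and 0.23 in LCS, and over the kept lower genes -0.57 and -0.35. A fold of at least 1.5 in both mutants was reached by 44 of the higher genes and 305 of the lower genes, and 47 of these 305 have only predicted names. In 131 kept lower genes a mutant mean lay under the intensity filter, where the size of a difference is uncertain. At the edge of the rule, Ube2q2 was kept with 0.0001 log2 units between its nearest mutant and WT arrays, and Ppa1 and Sirt2 with 0.0004. Abhd6, Nacc1 and Slc16a9 were not kept, because a mutant and a WT array tied.

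The genes with the largest shared rise were ranked by the smaller of their differences in G609G and LCS. At the top stood Acta1, the actin of skeletal muscle, at 8.92, 8.98 and 9.05 in WT, 13.17, 13.22 and 13.05 in G609G and 10.53, 10.58 and 10.55 in LCS. The groups did not overlap, and the G609G difference of 4.16 exceeded the LCS difference of 1.57 by 2.59 (95% interval 2.49 to 2.69, limma adjusted p = 2.49e-13). Acta1 is itself 1 of the 17 muscle markers. Hspb7, a small heat shock protein of heart and muscle, was second with differences of 1.86 and 1.36, or 1.40 and 1.39 without the shift. Ankrd23, a muscle ankyrin repeat protein, read 5.92, 5.83 and 5.84 in WT, 10.32, 10.33 and 10.36 in G609G and 6.84, 6.57 and 6.64 in LCS. The 2 mutants did not overlap for Ankrd23. The muscle markers as a whole averaged 11.46 to 11.51 on the G609G arrays, 5.55 to 5.61 on the LCS arrays and up to 5.46 on the WT arrays. How far muscle RNA bears on these 3 genes, or on the other rises in G609G reported here, was not tested.

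**Figure D2:**
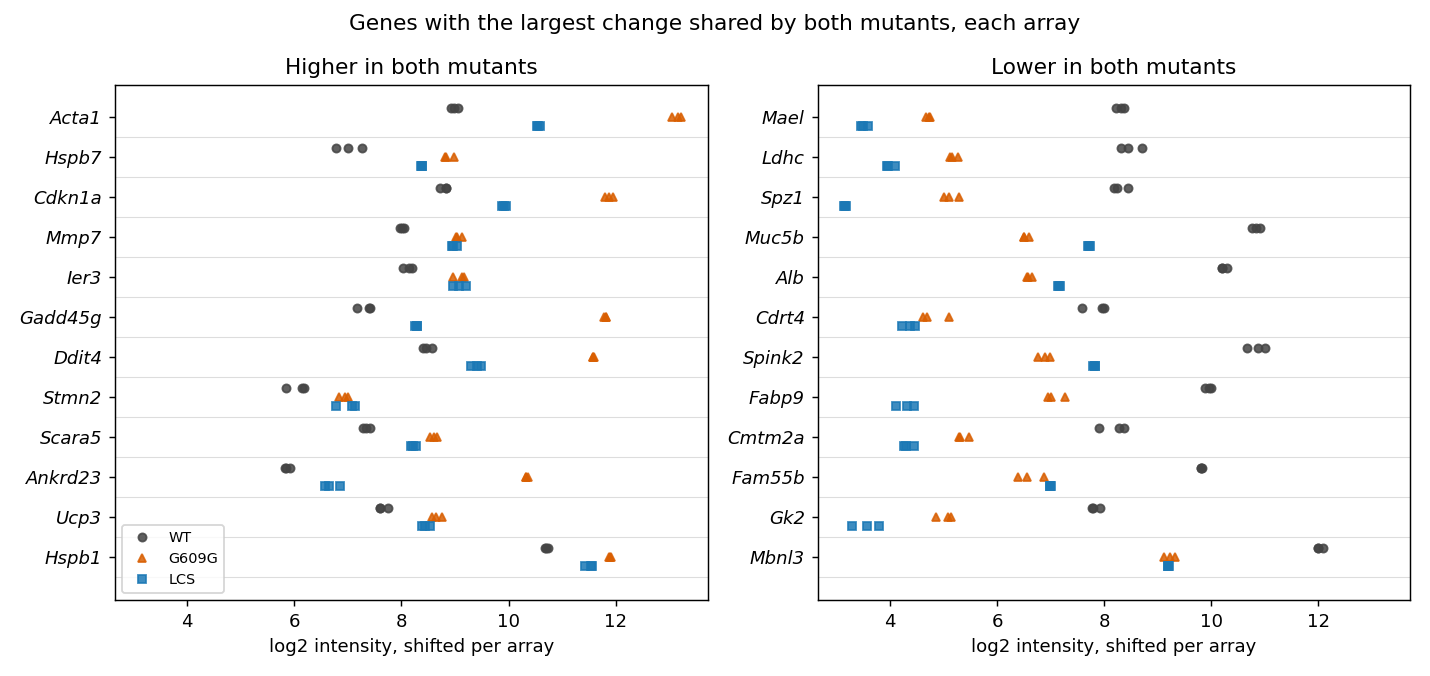
Log2 intensity (horizontal axis, after the shift of each array) of the 12 genes with the largest shared rise and the 12 with the largest shared fall; each point is 1 array of WT, G609G or LCS. No mutant point overlaps the WT points of its gene, and Mmp7, Ier3, Stmn2 and Mbnl3 have both mutants at nearly the same level on this shifted scale.

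Mmp7, a secreted matrix metalloproteinase, read 8.05, 7.97 and 8.0 in WT, 9.04, 9.02 and 9.14 in G609G and 9.03, 8.94 and 8.95 in LCS. Ier3, an early response gene that modulates cell survival, read 8.03, 8.19 and 8.13 in WT, 9.12, 8.97 and 9.16 in G609G and 9.07, 9.20 and 8.95 in LCS. After the shift the 2 mutants overlapped for both genes and stood about 1 log2 unit above WT. G609G exceeded LCS by 0.09 for Mmp7 (95% interval -0.02 to 0.20, limma adjusted p = 0.112) and by 0.01 for Ier3 (-0.15 to 0.16, adjusted p = 0.931). Stmn2, a tubulin-binding protein of neurons, was higher by 0.87 in G609G and 0.94 in LCS. The ferritin receptor Scara5 was higher by 1.26 and 0.87, and the mitochondrial uncoupling protein Ucp3 by 1.01 and 0.80. The intervals of G609G minus LCS were -0.32 to 0.18 for Stmn2, 0.26 to 0.51 for Scara5 and 0.06 to 0.35 for Ucp3, with the rise in Scara5 and Ucp3 larger in G609G. Without the shift G609G minus LCS was -0.41 for Mmp7, -0.49 for Ier3, -0.57 for Stmn2, -0.11 for Scara5 and -0.29 for Ucp3.

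Genes that respond to glucocorticoids and fasting formed the list with the most kept rises. Of 21 tested members 17 were higher in all mutant arrays and none was lower, against 10.0% and 11.6% of all tested genes. The median over the list was 1.54 in G609G and 0.46 in LCS, against -0.005 and 0.019 over all tested genes. Cdkn1a, which encodes the cyclin-dependent kinase inhibitor p21, read 8.83, 8.84 and 8.71 in WT, 11.87, 11.81 and 11.95 in G609G and 9.91, 9.88 and 9.94 in LCS. Gadd45g, a stress-induced growth arrest gene, read 7.17, 7.40 and 7.39 in WT, 11.81, 11.82 and 11.78 in G609G and 8.29, 8.25 and 8.30 in LCS. Ddit4, an inhibitor of mTORC1 signalling, read 8.40, 8.46 and 8.57 in WT, 11.57, 11.57 and 11.60 in G609G and 9.41, 9.30 and 9.48 in LCS. All 3 genes stood about 1 log2 unit above WT in LCS and more than 3 above WT in G609G, with no overlap between any groups. Pdk4, the kinase that shuts pyruvate out of the mitochondrial citric acid cycle in fasting, read 10.80, 10.78 and 10.79 in WT, 12.80, 12.76 and 12.78 in G609G and 11.32, 11.37 and 11.33 in LCS. Fkbp5, a co-chaperone that restrains the glucocorticoid receptor, was higher by 1.42 and 0.71. All 17 kept genes differed between G609G and LCS by limma, where 73.8% of all tested genes did. The interval of G609G minus LCS was 1.87 to 2.06 for Cdkn1a, 3.40 to 3.65 for Gadd45g, 2.06 to 2.30 for Ddit4, 1.38 to 1.49 for Pdk4 and 0.63 to 0.80 for Fkbp5. Across scalings, filters and left-out arrays between 14 and 18 members were kept higher.

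Immediate early genes, transcription factors and feedback regulators switched on within minutes of a stimulus, were also mostly higher. Of 25 tested members 14 were kept higher and none lower, against 10.0% and 11.6% of all tested genes. The members of this list had different medians in the 2 mutants. The median difference was 0.51 in G609G and 0.39 in LCS, or 0.04 and 0.42 without the shift. Btg2, an antiproliferative gene and p53 target, read 8.97, 8.82 and 8.88 in WT, 10.86, 10.83 and 10.66 in G609G and 9.43, 9.44 and 9.36 in LCS. Jun, a component of the AP-1 transcription factor, was higher by 1.16 and 0.59, and Zfp36, which speeds the decay of inflammatory mRNAs, by 0.96 and 0.56. Without the shift the mutants did not differ at the threshold for these last 2 genes, at 0.07 for Jun and -0.10 for Zfp36. Of the 14 kept genes 11 differed between the mutants by limma, and Ier3 was among those that did not pass. Without the shift 10 members were kept higher. Of 24 p53 targets tested, 4 were kept higher, Cdkn1a and Btg2 among them, and none lower, against 10.0% and 11.6% of all tested genes. By limma over the mean of both mutants 10 were called higher and 3 lower, against 26.5% and 27.8% of all tested genes. Without the second WT array 7 p53 targets were kept higher.

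Among the heat shock proteins and chaperones, which hold or refold damaged proteins, 6 of 18 tested members were kept higher and 1 lower. The shares over all tested genes were 10.0% and 11.6%. Hspb1, a small heat shock protein that binds unfolded clients and actin, read 10.74, 10.71 and 10.67 in WT, 11.92, 11.87 and 11.89 in G609G and 11.54, 11.43 and 11.55 in LCS. Hspb8, its relative that works with the co-chaperone Bag3 in selective autophagy, read 8.78, 8.65 and 8.73 in WT, 10.08, 10.11 and 10.29 in G609G and 9.33, 9.32 and 9.40 in LCS. Bag3 read 9.11, 9.07 and 9.23 in WT, 9.96, 9.92 and 10.05 in G609G and 9.53, 9.42 and 9.45 in LCS. For these 3 genes, after the shift, every G609G array stood above every LCS array, with an interval of the difference of 0.31 to 0.46 for Hspb1, 0.69 to 0.94 for Hspb8 and 0.39 to 0.62 for Bag3. Without the shift this difference was -0.11 for Hspb1, 0.32 for Hspb8 and 0.01 for Bag3. Cryab, the small heat shock protein alpha B crystallin, was the reverse, higher by 0.32 in G609G and 0.65 in LCS, although the G609G difference was -0.15 without the shift. Without the shift 3 of the list's 18 genes were kept higher.

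Promoters from RefSeq (assembly GRCm38.p6) were matched by symbol for 64 of the 80 genes examined one by one, from 250 bases before to 50 after the transcription start. They were searched for the core of the heat shock element, GAANNTTC, which reads the same on both strands and is bound by heat shock factors. The stretches of Hspb1 (chr5:135887669-135887948, plus strand) and Hspb8 (chr5:116422835-116423114, minus strand) are shown. Of the named genes kept higher in the chaperone list, these held the element within the printed 280 bases. Bag3 also held 1 element, but beyond the end of that stretch. Each printed stretch runs 5′ to 3′ and ends 30 bases after the start, with the element in capitals.

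Hspb1: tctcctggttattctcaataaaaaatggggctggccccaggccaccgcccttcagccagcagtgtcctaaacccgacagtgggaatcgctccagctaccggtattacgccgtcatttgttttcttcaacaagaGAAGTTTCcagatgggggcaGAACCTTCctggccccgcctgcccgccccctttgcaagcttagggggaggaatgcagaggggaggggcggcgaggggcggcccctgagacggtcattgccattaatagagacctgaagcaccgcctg

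Hspb8: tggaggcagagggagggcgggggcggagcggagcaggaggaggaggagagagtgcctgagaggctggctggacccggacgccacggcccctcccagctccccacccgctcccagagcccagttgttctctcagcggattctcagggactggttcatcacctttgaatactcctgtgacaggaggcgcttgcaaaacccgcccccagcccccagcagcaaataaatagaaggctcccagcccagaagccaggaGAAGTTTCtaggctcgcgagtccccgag

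The Hspb1 elements begin at -117 and -97 from the start, and the Hspb8 element at base 3 after it. All 4 kept higher genes of the chaperone list with a promoter in the table held at least 1 element, as did 4 of 7 list genes not kept and 0 of 1 kept lower. The element was no more frequent among the kept genes at large: it was found in 5.48% of the promoters of kept higher genes and 5.62% of those of kept lower genes, against 5.66% for all tested genes and 7.86% of all 32851 promoters. The cyclic AMP element TGACGTCA stood in 3.24%, 2.33% and 2.70% of the kept higher, kept lower and tested promoters, and the E-box CACGTG in 9.22%, 10.1% and 9.77%. On either strand CCAAT stood in 35.3%, 37.2% and 36.7%, and TATAAA in 8.97%, 7.95% and 7.76%. A match is a match of letters and was not tested for binding.

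Endothelial markers were mostly higher in both mutants relative to the median gene. Of 20 tested, 13 were kept higher and 1 lower, against 10.0% and 11.6% of all tested genes. The median difference of the markers was 0.34 in G609G and 0.25 in LCS. Without the shift these medians were -0.12 and 0.28, so that the direction in G609G turned. The markers averaged 8.70 to 8.72 on the WT arrays, 9.09 to 9.15 in G609G and 8.96 to 8.99 in LCS. In bulk tissue, more cells of a type and more RNA per cell cannot be told apart. Kdr, the main receptor for vascular endothelial growth factor, read 8.66, 8.67 and 8.76 in WT, 9.50, 9.52 and 9.56 in G609G and 9.22, 9.18 and 9.27 in LCS. Sox17, an arterial transcription factor, was higher by 1.32 and 0.56, and Gpihbp1, which carries lipoprotein lipase across capillaries, by 0.70 and 0.46. Without the shift G609G lay below LCS for Kdr (-0.20) and Gpihbp1 (-0.26). Lyve1, a hyaluronan receptor of lymphatic vessels, was higher by 0.36 in G609G, a difference that was -0.10 without the shift, and by 0.78 in LCS. Without the shift 5 of the 20 markers were kept higher, and 9 of 21 when genes were not filtered on their mean. The 26 macrophage markers did not share a direction, since they averaged 7.47 to 7.59 in G609G, 8.53 to 8.57 in LCS and 8.19 to 8.20 in WT, and 1 of them was kept higher and 1 lower.

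**Figure D3:**
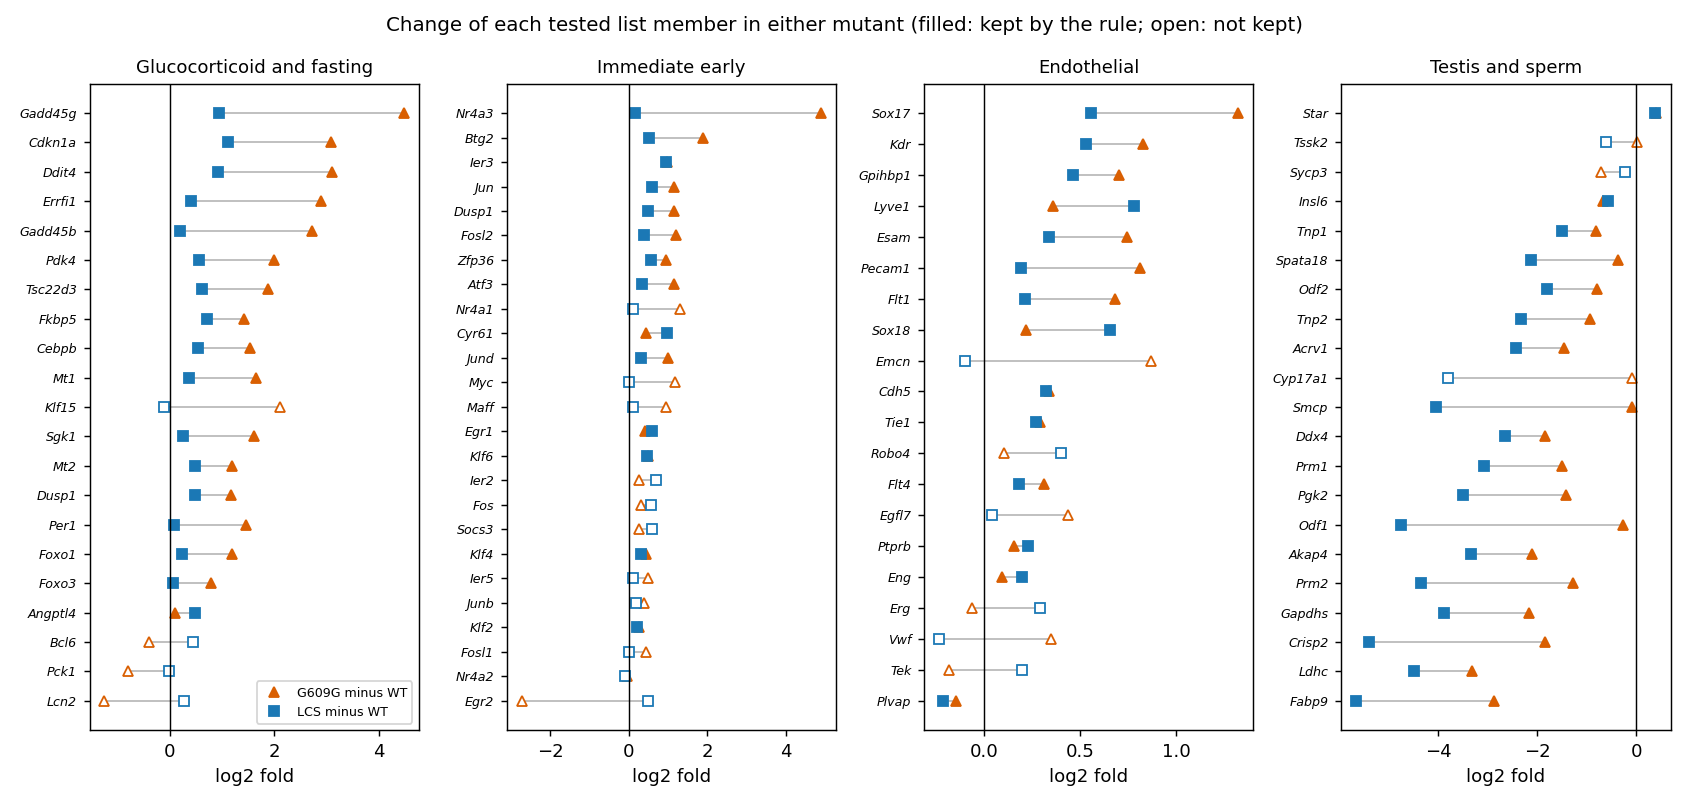
Log2 difference from WT of each tested member of 4 gene lists, with G609G as triangles and LCS as squares joined by a line, and filled symbols for genes kept by the rule. In the glucocorticoid and fasting list nearly all triangles lie to the right of their squares, whereas in the testis and sperm list the squares lie furthest to the left.

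In the list of fatty acid and triglyceride synthesis 10 of 26 tested genes were kept lower and 4 higher. The shares over all tested genes were 11.6% and 10.0%. Thrsp, a lipogenic regulator, read 10.43, 10.54 and 10.58 in WT, 8.90, 8.98 and 8.81 in G609G and 9.74, 9.72 and 9.72 in LCS. Acly, which makes cytosolic acetyl-CoA from citrate, differed by -0.74 in G609G and -0.35 in LCS. Fasn, fatty acid synthase, met the rule with a difference of -1.61 in G609G but only -0.04 in LCS, and was not kept without the shift or when arrays were centred on their medians. Agpat2, an acyltransferase of triglyceride synthesis whose loss causes lipodystrophy, differed by -0.15 and -0.18, and its G609G difference was 0.00 when centred. Lpin1, the phosphatidate phosphatase of the same pathway, went the other way, 1.63 higher in G609G and 0.20 in LCS. The kept lower count of this list fell to 6 with centring and to 4 when the median of a gene's probe sets was used.

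Mitochondrial fatty acid oxidation had 5 of 23 tested genes kept higher and none lower, against 10.0% and 11.6% of all tested genes. Acadl, a long-chain acyl-CoA dehydrogenase, was higher by 0.58 and 0.13, or 0.12 and 0.17 and not kept without the shift. Slc25a20, the carnitine shuttle, was higher by 0.32 and 0.41, with -0.14 in G609G without the shift. The respiratory chain had 5 of 28 kept higher and none lower, against the same shares. Its list medians were 0.35 in G609G and -0.04 in LCS, so that the list as a whole was not higher in LCS. Without the shift none of its genes was kept higher and 2 were kept lower, and the G609G median was -0.12. Fatty acid oxidation then had 2 kept higher and 1 lower, and the insulin and IGF list, described next, 3 higher. The insulin and IGF list had 6 of 23 kept higher and none lower, against 10.0% and 11.6% of all tested genes. Igfbp3, a carrier of insulin-like growth factors, read 7.81, 7.80 and 7.83 in WT, 10.98, 11.01 and 11.17 in G609G and 8.49, 8.48 and 8.51 in LCS. Slc2a4, the insulin-responsive glucose transporter GLUT4 of fat and muscle, was higher by 1.03 and 0.35. Igf1 was higher by 0.39 and 0.38, with an interval of G609G minus LCS of -0.09 to 0.11, and its G609G difference was -0.07 without the shift. Of the adipocyte hormones, Lep was not kept, at 10.59, 10.47 and 10.42 in WT, 5.05, 5.07 and 5.13 in G609G and 11.55, 11.63 and 11.62 in LCS, so that it lay on opposite sides of WT in the mutants. Adipoq was not kept either, because its LCS arrays, at 13.20, 13.22 and 13.21, lay within the WT values of 13.25, 13.29 and 13.10, while G609G read 12.89, 12.93 and 12.79. Of the 26 adipocyte markers 2 were kept, both higher, and without the third WT array 4 were kept higher and 3 lower.

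The circadian clock, a feedback loop of activators and repressors that sets daily rhythms, had 7 of 20 tested members kept higher and 2 lower. The shares over all tested genes were 10.0% and 11.6%. Arntl, the activator BMAL1, read 6.80, 6.74 and 6.81 in WT, 8.76, 8.76 and 8.85 in G609G and 7.11, 7.14 and 7.11 in LCS. Nr1d1, a repressor of Arntl, was higher by 0.53 and 0.37, or 0.07 and 0.41 and not kept without the shift. Csnk1e, a kinase of the period proteins, was higher by 0.76 and 0.34, or 0.30 and 0.37 without the shift. Per3 was lower, at 8.25, 8.13 and 8.29 in WT, 7.25, 7.17 and 7.15 in G609G and 7.73, 7.72 and 7.72 in LCS. The labels give no time of day of collection. Of 17 tested skeletal muscle markers 6 were kept higher. All 17 had a G609G mean above the filter, against 7 in WT and 8 in LCS, so that most were tested only because of their G609G level and no count over this list supports a result. The list's median difference was 6.55 in G609G and 0.07 in LCS. Myl1, a fast myosin light chain, was higher by 4.14 and 0.37. Actn3, an actinin of fast fibres, was higher by 6.55 and 0.23, and the calcium buffer Pvalb by 7.76 and 0.41, its WT and LCS values lying under the filter.

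**Figure D4:**
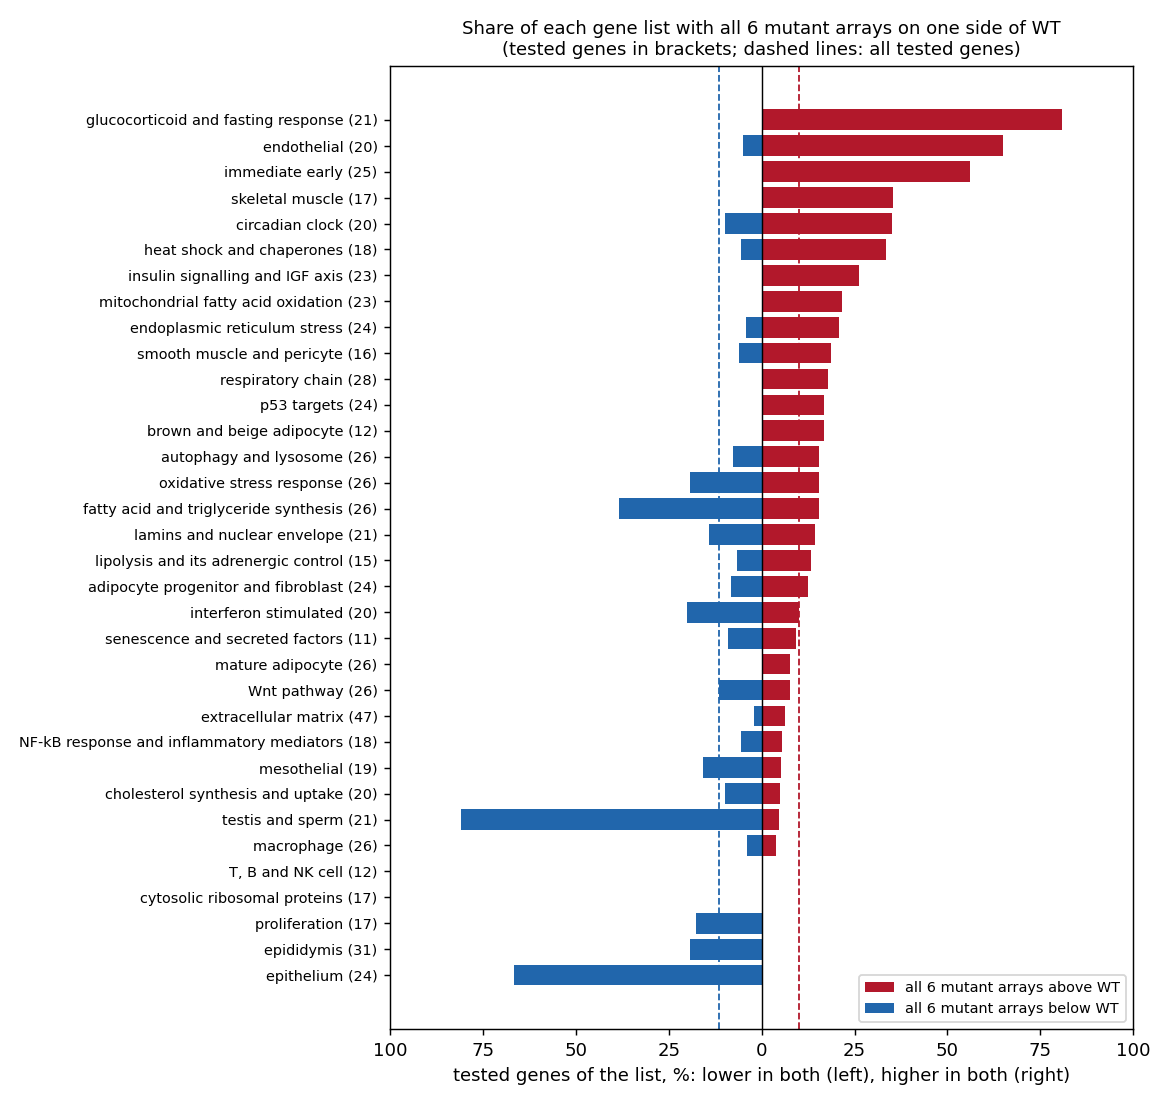
Percentage of the tested genes of each list (number in brackets) that were kept as higher in both mutants (right) or lower in both (left), with dashed lines at 10.0% and 11.6% for all tested genes. The glucocorticoid and fasting, endothelial and immediate early lists reach furthest right, and the testis and sperm and epithelium lists furthest left. Of the 21 tested testis and sperm genes, 10 had an LCS mean above the intensity filter, so the length of that bar supports no result. The epithelium list was drawn up after the values were seen, and the length of its bar supports none either.

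Genes of male germ cells and the genital tract stood among the largest shared falls. Of 21 tested testis and sperm markers 17 were kept lower and 1 higher, as were 6 lower among those too dim to be tested, and the list's median difference was -0.94 in G609G and -3.07 in LCS. All 21 had a WT mean above the filter, against 20 in G609G and 10 in LCS. Many thus passed the filter through the groups where they were high, and no count over this list supports a result. Of its kept members 9 had all 3 group means above the filter. Fabp9, a fatty acid binding protein of sperm, read 10.00, 9.88 and 9.95 in WT, 7.27, 7.01 and 6.95 in G609G and 4.32, 4.45 and 4.11 in LCS. Mael, which guards the male germ line against transposons, read 8.37, 8.23 and 8.31 in WT, 4.74, 4.73 and 4.67 in G609G and 3.58, 3.45 and 3.49 in LCS. Ldhc, the lactate dehydrogenase of sperm, read 8.44, 8.32 and 8.72 in WT, 5.17, 5.27 and 5.12 in G609G and 3.97, 4.10 and 3.94 in LCS. All 3 genes were higher in every WT array than in any mutant array. Their LCS values, and the G609G values of Mael, lay under the filter of 5.09, so the size of those differences is uncertain. Spz1, a spermatogenic transcription factor, differed by -3.15 in G609G and -5.13 in LCS. Gk2, a germ cell glycerol kinase, differed by -2.80 and -4.27. Gapdhs, the glycolytic dehydrogenase of sperm, differed by -2.16 and -3.87, and Akap4, a scaffold of the sperm tail, by -2.09 and -3.33. The LCS means of these 4 genes also lay under the filter, and the order of the mutants there is uncertain. Cmtm2a and Cdrt4 were lower by similar amounts, with differences of -2.84 and -3.04 in G609G and -3.85 and -3.49 in LCS, where both lay under the filter, as Cdrt4 did in G609G.

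Of 31 tested epididymis markers limma called 28 lower and 1 higher over the mean of both mutants, against 27.8% and 26.5% of all tested genes. All 31 had a WT mean above the filter, against 27 in G609G and 29 in LCS. Some thus passed the filter through the groups where they were high, and no count over this list supports a result. The rule kept 6 of the 31 as lower and none as higher. The kept count was 11 without the third WT array and 11 without the shift. The list median was -1.45 in G609G and -0.18 in LCS. Lcn5, a lipocalin secreted into the epididymal lumen, read 13.28, 13.27 and 13.17 in WT, 11.82, 11.77 and 11.82 in G609G and 11.67, 11.71 and 11.68 in LCS. Both mutants lay well below WT, and G609G minus LCS was 0.11 with the shift and -0.38 without it. The ribonuclease Rnase9 differed by -1.45 in G609G and -2.91 in LCS. The defensin Defb21 differed by -2.80 and -2.59, and the secreted chaperone clusterin (Clu) by -1.75 and -0.99. These secreted proteins bathe maturing sperm. Spink2, a protease inhibitor of the male tract, read 11.01, 10.88 and 10.67 in WT, 6.77, 7.0 and 6.89 in G609G and 7.82, 7.79 and 7.83 in LCS. Muc5b, a gel-forming mucin of secretory epithelia, differed by -4.31 in G609G and -3.12 in LCS. Alb (albumin) differed by -3.64 and -3.08, and Fam55b (now Nxpe2) by -3.20 and -2.82. All 4 of these genes were lower in G609G than in LCS. An epithelial list, drawn up after the values were seen, had 16 of 24 tested genes kept lower and none higher, and averaged 8.57 to 8.62 on the WT arrays, 7.90 to 8.02 in G609G and 8.18 to 8.22 in LCS. Within it the cell adhesion protein Cdh1 differed by -0.34 and -0.31 and the epithelial transcription factor Ehf by -0.67 and -0.75. The protease inhibitor Spint1 differed by -0.96 and -0.82, and its relative Spint2 by -0.87 and -0.81. None of these last 4 genes differed between the mutants at the threshold with the shift, with intervals of G609G minus LCS of -0.13 to 0.07 for Cdh1, -0.09 to 0.25 for Ehf, -0.28 to 0.01 for Spint1 and -0.16 to 0.02 for Spint2. Without the shift G609G lay below LCS for all 4, by differences of -0.53, -0.42, -0.64 and -0.57 in the same order. How far RNA from neighbouring reproductive tissue bears on the kept lower genes was not tested.

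Mbnl3 and Enpp1 lay far below WT in both mutants. Mbnl3, a muscleblind-like splicing regulator, read 12.08, 11.99 and 11.997 in WT, 9.13, 9.22 and 9.33 in G609G and 9.20, 9.21 and 9.19 in LCS, so that the mutants overlapped at differences of -2.79 and -2.82 from WT. Enpp1, a pyrophosphatase that inhibits mineralization and is linked to insulin resistance, read 11.86, 11.87 and 11.70 in WT, 9.54, 9.61 and 9.69 in G609G and 9.65, 9.68 and 9.65 in LCS. It was singled out after its values were seen. The interval of G609G minus LCS was -0.08 to 0.13 for Mbnl3 (limma adjusted p = 0.593) and -0.15 to 0.06 for Enpp1 (adjusted p = 0.42). Neither difference passed the threshold. Without the shift G609G minus LCS was -0.47 for Mbnl3 and -0.54 for Enpp1, outside these intervals, so that the closeness of the mutants rests on the shift. All 28 probe sets of Enpp1 and 7 of 8 of Mbnl3 met the rule on their own.

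Of 26 oxidative stress genes tested, 4 were kept higher and 5 lower, against 10.0% and 11.6% of all tested genes. Slc7a11, the cystine importer that feeds glutathione synthesis, read 7.95, 7.90 and 7.94 in WT, 6.05, 6.07 and 6.27 in G609G and 5.90, 5.82 and 5.92 in LCS. Nqo1, a quinone reductase, was mainly lower in LCS, at 7.77, 7.93 and 7.94 in WT, 7.31, 7.46 and 7.58 in G609G and 5.66, 5.27 and 5.67 in LCS. Gsta4, a glutathione transferase for lipid aldehydes, differed by -0.75 and -0.49. Hmox1, heme oxygenase, went the other way, higher by 1.13 in G609G and 0.38 in LCS. In the Wnt pathway 2 of 26 tested genes were kept higher and 3 lower, near the shares of all tested genes. Without the first WT array these Wnt counts were 5 and 4. Tcf7, a nuclear partner of beta-catenin, read 8.49, 8.46 and 8.46 in WT, 6.51, 6.76 and 6.68 in G609G and 7.13, 7.12 and 7.12 in LCS. The feedback target Axin2 differed by -0.44 and -0.52. Of the secreted Wnt antagonists, Sfrp2 differed by -0.66 and -0.48, and Sfrp1 by 0.28, or -0.18 without the shift, in G609G and 0.95 in LCS.

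Of the genes of the nuclear envelope, where lamins act, 3 of 21 tested were kept higher and 3 lower, near the shares of all tested genes (10.0% and 11.6%). Without the second LCS array 5 were kept higher, and without the shift 1 higher and 3 lower. Unc84b (now Sun2), which spans the inner membrane and joins lamins to nesprins, read 8.49 to 8.52 in the 3 WT arrays, 9.72, 9.74 and 9.82 in G609G and 8.76, 8.78 and 8.77 in LCS. The groups did not overlap, and it was kept under each scaling. The pore protein Nup210 was lower, at 7.95, 7.94 and 7.90 in WT, 7.10, 7.15 and 7.12 in G609G and 6.98, 6.95 and 6.98 in LCS. Syne2, a nesprin that links the envelope to the cytoskeleton, differed by -0.59 and -0.29. Banf1, a chromatin protein that binds the LEM domain proteins of the envelope, was higher by 0.25 in G609G, or -0.21 without the shift, and by 0.47 in LCS. Tmpo, which encodes the lamin-binding LAP2 proteins, was higher by 0.45, or -0.01 without the shift, and by 0.16. Of 47 extracellular matrix genes 3 were kept higher and 1 lower, under the shares of all tested genes. The list medians were -0.52 in G609G and 0.45 in LCS. The kept higher count was 7 when centred, 6 without the second G609G array and 5 without the third. None of 17 cytosolic ribosomal protein genes and none of 12 lymphocyte markers was kept with the shift, whereas 11 of the ribosomal genes were kept lower without it. Without the third G609G array 2 of 11 tested lymphocyte markers were kept higher. With the shift limma called 7 of the ribosomal genes (4 higher and 3 lower) over the mean of both mutants. Of the lymphocyte markers it called 4 (3 higher and 1 lower). Over all tested genes 26.5% were called higher and 27.8% lower.

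Sharing a direction did not mean sharing a size. G609G and LCS differed by limma for 750 of the 1136 kept higher genes (66%) and 882 of the 1320 kept lower genes (66.8%), against 73.8% of all tested genes; the rule limits this difference by asking for 1 direction, so the shares are given as a description. Among the kept higher genes that differed, the change from WT was larger in G609G for 643 and in LCS for 107. Among the kept lower genes it was larger in G609G for 605 and in LCS for 277. These splits rest on the shift, without which the order of 498 of the 1632 genes turned. How far muscle RNA on the G609G arrays bears on these splits was not tested. At a fold of at least 1.5 in both mutants, of 44 higher genes 27 were changed more in G609G, 4 more in LCS and 13 did not differ at the threshold, whereas of 305 lower genes 69 were changed more in G609G, 142 more in LCS and 94 did not differ at the threshold. The last split rests on dim genes and on the shift. Over the 207 lower genes with all 3 group means above the filter, a subset chosen after the values were seen, 67 were changed more in G609G and 61 more in LCS. Without the shift the 305 split into 165 and 70, and the 44 higher genes into 16 and 20.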

How the data were processed

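Perigonadal fat RNA was labelled with biotin and hybridised to 9 exon arrays of 1 colour, per the labels' protocols. Values deposited by the authors are log2 intensities of 229581 probe sets on each array; normalization and software are not given in the sources used here. Genome build mm9 is named in the submitters' processing notes. The design text of the series counts 10 samples and speaks of biological replicates; 9 arrays were analysed here, grouped by title. The number of arrays limits the precision.

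Gene values were formed by median polish (at most 10 rounds) over the 208397 probe sets with exactly 1 gene symbol. The 11342 genes tested had 3 or more probe sets and a mean over 5.088, the 25th percentile. Each array was shifted by its median deviation from the gene means. limma (lmFit and eBayes with a trend, version 3.58.1, in R 4.3.3) was fitted to all 9 arrays, with Benjamini-Hochberg adjustment over all tested genes, for the mean of both mutants minus WT and for G609G minus LCS, and was tested on simulated data. Intervals are 95% intervals from this fit, not adjusted for the number of genes. A mutant and a WT array that tied kept a gene out. Figures used matplotlib 3.10.9. Of 16299 symbols, 14132 were current and 2161 synonyms in a RefSeq table, and 6 were unmatched.

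The kept genes and the 41 gene lists were chosen with earlier results of these data known, and the epithelial list was added after the values were seen. Genes named were drawn from the 12 largest rises and falls by the smaller of both differences, up to 4 kept genes per list, and a fixed set. Of that set, Lmna, Lmnb2, Zmpste24, Lep, Adipoq, Pparg, Ppargc1a, Cdkn2a, Emr1 and Pnpla2 were not kept, and Ucp1 was kept as lower but was too dim to be tested, as was Lmnb2. Lmnb1 was not analysed here. After the values were seen, Cdh1, Spint1, Spint2, Ehf, Enpp1 and Unc84b were added, as was the alternative that counts only genes with all 3 group means above the filter. Alternatives covered scaling, the probe set summary, filters, the variance model, a replicate block, the methods' t-test at a fold of 1.5 and leaving out each array.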

Additional observations from a re-analysis of the deposited data

Results flagged for a closer look

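The change from WT differed in size between the mutants for most named genes, by limma's test of G609G minus LCS with Benjamini-Hochberg adjustment over all tested genes at 0.05. This test passed for 73.8% of all tested genes, so passing it does not set a gene apart. It also rests on the shift of the arrays: of 63 named kept genes that passed, 46 were called in the same order without the shift, 2 had the same order and were not called, and 15 turned or came to 0. The values in brackets are G609G minus LCS on the log2 scale.

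Among genes kept as higher, the rise was larger in G609G for Acta1 (2.59), Hspb7 (0.50), Cdkn1a (1.96), Gadd45g (3.52), Ddit4 (2.18), Scara5 (0.39), Ankrd23 (3.65), Ucp3 (0.21), Hspb1 (0.38), Fkbp5 (0.71), Jun (0.57), Zfp36 (0.40) and Btg2 (1.37). The same was found for Sox17 (0.76), Kdr (0.30), Gpihbp1 (0.24), Hspb8 (0.81), Bag3 (0.51), Pdk4 (1.44), Acadl (0.45), Nr1d1 (0.16), Csnk1e (0.42), Arntl (1.67), Pvalb (7.34), Myl1 (3.77), Actn3 (6.32), Igfbp3 (2.56), Slc2a4 (0.67), Hmox1 (0.75), Lpin1 (1.43), Tmpo (0.29) and Unc84b (0.99). The rise was larger in LCS for Lyve1 (-0.42), Cryab (-0.33), Banf1 (-0.22) and Sfrp1 (-0.67).

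Among genes kept as lower, the level was lower still in G609G for Muc5b (-1.18), Alb (-0.56), Spink2 (-0.93), Fam55b (-0.38), Per3 (-0.54), Gsta4 (-0.26), Clu (-0.75), Thrsp (-0.83), Acly (-0.40), Syne2 (-0.30), Tcf7 (-0.48), Sfrp2 (-0.18) and Fasn (-1.56). It was lower still in LCS for Mael (1.20), Ldhc (1.18), Spz1 (1.97), Cdrt4 (0.45), Fabp9 (2.78), Cmtm2a (1.01), Gk2 (1.47), Slc7a11 (0.25), Nqo1 (1.92), Gapdhs (1.70), Akap4 (1.24), Rnase9 (1.47), Lcn5 (0.11) and Nup210 (0.15). The LCS means of Mael, Ldhc, Spz1, Cdrt4, Fabp9, Cmtm2a, Gk2, Gapdhs and Akap4 lay under the intensity filter. The size of their differences and the order of the mutants are uncertain there. Without the shift the order turned for Scara5, Ucp3, Hspb1, Zfp36, Kdr, Gpihbp1, Acadl, Nr1d1, Csnk1e, Tmpo, Cdrt4, Slc7a11, Lcn5 and Nup210, and Hspb7 came to 0.00. Under centring and quantile normalization none of the 63 named kept genes that passed turned. Some named genes that did not pass with the shift did turn. Cdh1 went from -0.029 to 0.115 with centring, and Igf1 from 0.007 to -0.112 with quantile normalization. Of genes named but not kept, Lep (-6.52) and Adipoq (-0.34) passed the same test.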

How the results depend on the processing

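The scaling decided the balance of directions: with values as deposited, 927 genes were called higher and 5997 lower over the mean of both mutants, and 367 genes were kept as higher, since the median gene then stood at -0.20 against 0.01 with the shift. Of the 2456 kept genes, 1427 were kept the same way on the deposited values (338 higher and 1089 lower), 2077 with centring, 2163 with quantile normalization and 1494 with the median of a gene's probe sets. No kept gene met the rule on the other side, but without the shift the G609G difference itself changed sign for 607 of the 2456 kept genes and the LCS difference for 2. Of the 1632 kept genes that differed between G609G and LCS, 1004 were called in the same order on the deposited values, 130 kept the order only and 498 turned. With centring these counts were 1405, 192 and 35, and with quantile normalization 1482, 142 and 5. With the median of probe sets, 1083 kept genes differed between G609G and LCS, against 1632. The methods' t-test of 6 mutant against 3 WT arrays, which takes the difference between the mutants as error, called 627 genes (159 higher and 468 lower) at a fold of 1.5 and the threshold on p, 2363 (1082 and 1281) on p alone, and 846 (308 and 538) after Benjamini-Hochberg adjustment. Leaving out each array gave 5287 to 6753 called genes, 2629 to 2843 kept genes and 1645 to 1848 kept genes that differed between the mutants. With 1 array fewer the rule asks for less, so a kept count above 2456 follows in part from the rule itself. This bears on the list counts without an array too.

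For the mean of both mutants minus WT of the named genes, 1348 gene and setting pairs kept direction and side of the threshold. Lmna turned to 0.04 with centring and was called on the deposited values (-0.26) and with the plain mean of probe sets (-0.36). Slc25a20 (0.15) and Tmpo (0.09) were not called on the deposited values, Agpat2 (-0.09) and Adipoq (-0.09) with centring, and Sfrp2 (-0.13) with the median of probe sets. The cause was not tested.

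A replicate block left 6300 genes called (3096 higher and 3204 lower) and 1644 kept genes differing between the mutants. Deviations of same-numbered arrays correlated with r from -0.121 to 0.337. Between WT and G609G r was 0.168, 0.145 and 0.337 for the 3 replicate numbers. Arrays of different numbers were not compared, so whether same-numbered arrays share more than a number cannot be told.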

Other observations

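Of 24 endoplasmic reticulum stress genes tested, 5 were kept higher and 1 lower, and of 26 autophagy and lysosome genes 4 were higher and 2 lower. The latter were 8 higher and none lower when centred, and 7 higher and 2 lower without the third WT, the second G609G, the third G609G or the first LCS array. Of 20 interferon-stimulated genes, 2 were kept higher and 4 lower. Of 20 genes of cholesterol synthesis and uptake, 1 was kept higher and 2 lower, or 1 and 4 without the second WT array. Brown and beige adipocyte genes had 2 of 12 kept higher and none lower, with medians of 0.64 in G609G and 0.03 in LCS. Without the first WT or the third G609G array 1 was kept higher, and without the third LCS array 3 of 13 were higher and 1 lower. Smooth muscle and pericyte markers had 3 of 16 kept higher and 1 lower, and mesothelial markers 1 of 19 higher and 3 lower. Of 17 proliferation genes none was kept higher and 3 were kept lower, or 5 lower without the first WT array and 1 higher and 4 lower without the first G609G array. Against the 10.0% and 11.6% of all tested genes that were kept as higher and lower, most of these lists lie near the background.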
